A study of Homo sapiens with 6 samples.

Results

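The Hippo pathway effectors and YAP targets described here are 10 genes of the 61806 in the expression table, found by their symbols. They are the coactivators YAP1 and WWTR1 (the gene for TAZ), the DNA-binding partners TEAD1 and TEAD4, the kinase LATS2, the scaffold AMOTL2 and the target genes CCN1, CCN2, ANKRD1 and AXL. Their expression was compared between a control line and 2 HMGA2 knockdown lines of MDA-MB-231, a mesenchymal-type cell line from a triple-negative breast cancer. HMGA2 is a chromatin protein that binds AT-rich DNA.

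The sequenced samples were titled shNC, shHMGA2-1 and shHMGA2-2, with 2 samples each. Cells of every group were MDA-MB-231, and the knockdown lines carried an integrated lentiviral short hairpin RNA against HMGA2 under puromycin selection. For the control, the paper states transfection with shNC, but its account of vectors and puromycin does not mention shNC. According to the methods the knockdown lines were each expanded from 1 clone, which is not said of shNC. The library names do not match the titles throughout: those of the controls read WT, the shHMGA2-1 names contain SH2 and the shHMGA2-2 names contain no hairpin. Groups follow the titles. Each group was 1 line, so an effect of the hairpin and any other difference between the lines cannot be told apart. No source states that the 2 samples of a line came from separate cultures, and p-values measure the spread between such samples, which may be technical.

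The Hippo pathway is a kinase cascade in which the MST kinases, encoded by STK3 and STK4, activate the LATS kinases, which phosphorylate YAP and TAZ and hold them in the cytoplasm. When the cascade is off, YAP and TAZ enter the nucleus, bind TEAD transcription factors and switch on genes for matrix-associated proteins, growth and survival. Several genes of the cascade, LATS2 and AMOTL2 among them, are themselves YAP targets and act as negative feedback. The libraries measured mRNA, so phosphorylation, protein level and nuclear location of YAP and TAZ were not measured.

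TEAD factors recognise the letters GGAATG, and these were searched in RefSeq windows of the 250 bases before a start site (GRCh38.p14). Windows were matched by symbol for 7 of the 10 genes, 10 windows in all; CCN1, TEAD1 and TEAD4 had none. The sequences before the listed gene start of CCN2, ANKRD1 and YAP1 are shown because each holds a match on the strand of the gene. Each is printed 5′ to 3′ on that strand, with GGAATG in capitals, and without the bases that GENCODE version 29 gives to a transcript of the same gene, 1 base for CCN2 and 189 for ANKRD1.
CCN2, chr6:131951374-131951622, minus strand: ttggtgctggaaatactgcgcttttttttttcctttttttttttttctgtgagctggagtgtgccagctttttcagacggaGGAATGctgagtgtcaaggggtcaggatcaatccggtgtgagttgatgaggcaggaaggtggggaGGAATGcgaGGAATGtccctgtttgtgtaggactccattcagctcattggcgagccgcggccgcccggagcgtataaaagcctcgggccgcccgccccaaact
ANKRD1, chr10:90921277-90921337, minus strand: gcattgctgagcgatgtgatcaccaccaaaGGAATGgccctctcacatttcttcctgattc
YAP1, chr11:102110197-102110446, plus strand: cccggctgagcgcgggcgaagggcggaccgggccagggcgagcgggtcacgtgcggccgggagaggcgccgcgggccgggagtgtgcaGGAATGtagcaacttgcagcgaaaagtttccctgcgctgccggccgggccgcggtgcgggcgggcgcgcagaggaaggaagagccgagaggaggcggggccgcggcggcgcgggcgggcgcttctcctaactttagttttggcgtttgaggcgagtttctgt
The CCN2 window held 3 matches, at 169 to 164, 104 to 99 and 95 to 90 bases before the RefSeq start. The ANKRD1 window held 1 at 220 to 215 bases, shown here, and 1 at 128 to 123 bases, which lies within the longer GENCODE transcript. A match to TGANTCA, a loose form of the AP-1 letters in which N is any base, lay at 195 to 189 bases and overlapped neither. It read TGATTCA. Only its last base lies within that transcript, and its other bases end the sequence shown. YAP1 held 1 match, at 162 to 157 bases before its start. The windows of WWTR1 and LATS2 and the AXL window at the listed gene start held 0. The AMOTL2 window before a start 62 bases inside the listed gene also held 0. AXL and AMOTL2 each had 1 match, on the opposite strand, in a window before a start 7532 and 1032 bases inside the listed gene. Over all 35116 such windows, searched on both strands, 11.9% held GGAATG and 6.57% held TGANTCA. These are matches of letters in a short window and not measured binding sites.

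Reads per library numbered 16461178 to 17167293 counts on genes, of which mitochondrial genes took 6.74% to 7.86%. Counts of replicate libraries differed beyond sampling noise (chi-square divided by its degrees of freedom, 2.03 to 6.21, beside 31.2 to 85.6 for libraries of different lines). HMGA2 (ENSG00000149948), the targeted gene, had 131 and 133 CPM in shNC, with 49.5 and 58.3 for shHMGA2-1 and 25.7 and 27.6 for shHMGA2-2, where CPM is the count scaled to a common library size with TMM normalization. Its log2 fold change against shNC was -1.29 in shHMGA2-1 (adjusted p = 2.17e-11) and -2.31 in shHMGA2-2 (adjusted p = 2.11e-16) by the quasi-likelihood test of edgeR, adjusted by the Benjamini-Hochberg method over the 16110 genes tested. In bulk RNA, fewer cells expressing a gene and less RNA per cell cannot be told apart. Genes that overlap HMGA2 held counts of up to 12.0% of its own, and the strand setting of the counting is not known. The mesenchymal markers VIM, CD44, ZEB1 and CAV1 were present in every library, with a summed FPKM (reads scaled to exonic gene size and library size) of 636 to 706, mostly VIM. The others moved with the lines: mean FPKM in shNC, shHMGA2-1 and shHMGA2-2 was 34.8, 29.5 and 13.4 for ZEB1, 65.4, 81.3 and 94.2 for CD44, and 157, 106 and 186.5 for CAV1, beside 425, 423 and 411 for VIM. ESR1, PGR and CDH1 had at most 12 counts. The summed FPKM of the 5 markers that should be low was 9.81 to 10.03 in shNC, 15.5 to 17.4 in shHMGA2-1 and 12.8 to 13.5 in shHMGA2-2, mostly ERBB2 and EPCAM. The part of these markers in the results below was not tested. Leukocyte markers had at most 8 counts, CD3E was at 0 in every library, and endothelial markers had at most 14 counts.

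All 10 genes passed the filter on low counts. Against shNC, 5 genes were lower and 3 higher in shHMGA2-1 at an adjusted p under 0.05 (edgeR), where 17.6% of all tested genes were lower and 15.8% higher. In shHMGA2-2, 7 were lower and 0 higher, beside 29.2% and 29.5% of all tested genes. For the higher side, the count of 0 was the same at an unadjusted p under 0.05 and by DESeq2. In the direct comparison of the knockdown lines, 8 genes were lower in shHMGA2-2 than in shHMGA2-1 and 0 were higher, also without adjustment and by DESeq2, beside 25.7% and 24.5% of all tested genes. The comparisons with shNC use the same 2 shNC libraries and are given side by side.

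The changes were mostly under 2-fold. In shHMGA2-1 the log2 fold changes of the 10 genes ran from -0.61 to 0.35, with a median of -0.10 (0.010 over all tested genes), and 0 passed 2-fold by edgeR or DESeq2, where 3.59% of all genes passed it downwards and 4.89% upwards. In shHMGA2-2 they ran from -2.09 to -0.00098, with a median of -0.47 (0.028 over all tested genes). There ANKRD1 was past 2-fold, where 9.65% of all genes passed it downwards and 11.7% upwards. Between the knockdown lines the range was -2.41 to 0.14 and the median -0.28 (-0.0017 over all tested genes), and ANKRD1 was again past 2-fold, beside 7.27% downwards and 7.83% upwards. Scaled to library totals instead of TMM, a setting chosen after seeing the data, the median of all genes in shHMGA2-2 moved from 0.028 to 0.148 and the split of called genes in shHMGA2-1 from 5 lower and 3 higher to 4 and 4.

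**Figure D1:**
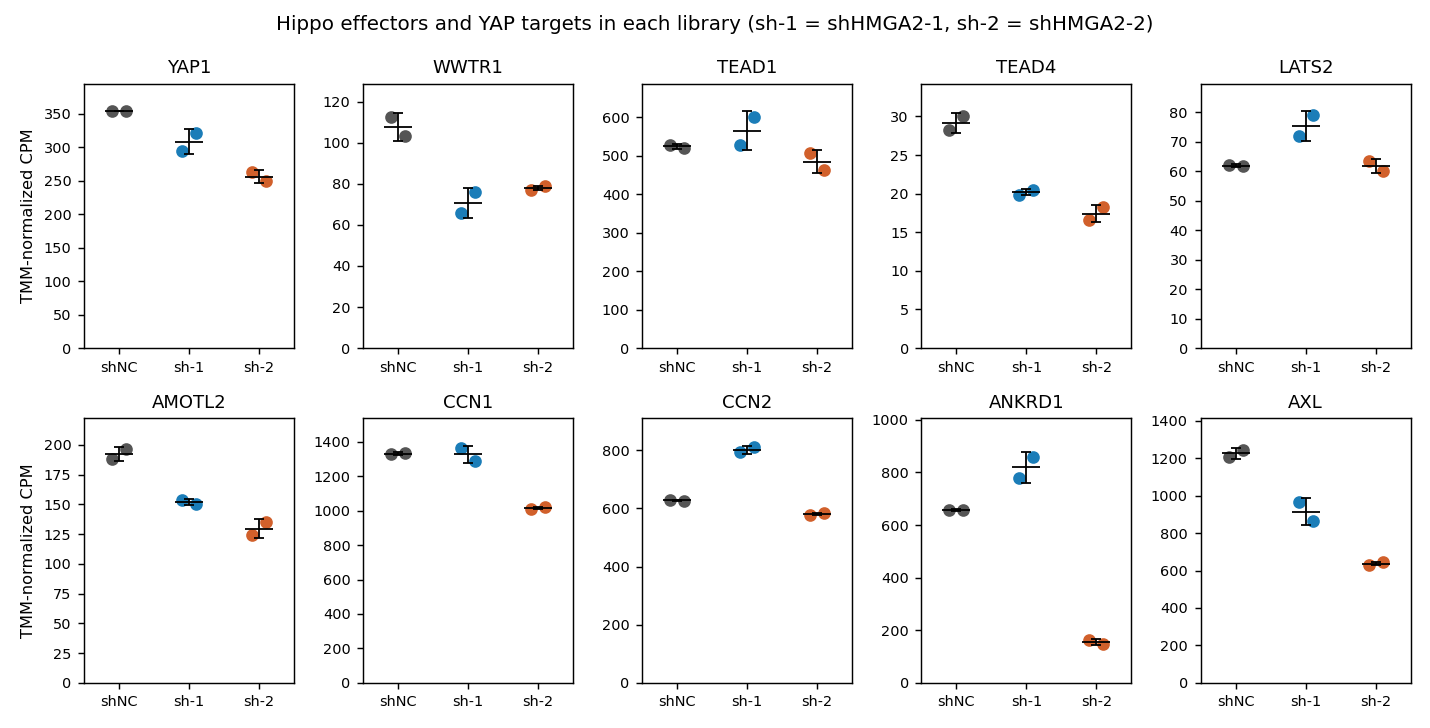
TMM-normalized CPM (y axes from 0) of each of the 10 genes in the shNC, shHMGA2-1 (sh-1) and shHMGA2-2 (sh-2) lines; points are libraries, horizontal lines the means and bars the SD (n = 2). ANKRD1 stands at 163 and 146 CPM in shHMGA2-2 and at 656 to 861 CPM in the other libraries, while AXL steps down from shNC to shHMGA2-1 to shHMGA2-2 without overlap.

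The coactivators were lower in both knockdown lines. YAP1 (ENSG00000137693, chr11:102110447-102233424, plus strand), which encodes the coactivator YAP, stood at 354 CPM in each shNC library, at 295 and 322 in shHMGA2-1 and at 264 and 249 in shHMGA2-2. The 3 lines did not overlap, with shNC highest and shHMGA2-2 lowest. The log2 fold change was -0.20 (SE 0.06, edgeR adjusted p = 0.02) in shHMGA2-1 and -0.46 (SE 0.06, edgeR adjusted p = 1.24e-06) in shHMGA2-2, a level 1.38-fold below shNC. Between the knockdown lines YAP1 differed by -0.27 (SE 0.06, edgeR adjusted p = 0.00132). The call in shHMGA2-1 was lost in edgeR without shNC replicate 1 (adjusted p = 0.144), shNC replicate 2 (adjusted p = 0.152) or shHMGA2-1 replicate 1 (adjusted p = 0.0778), and with limma (adjusted p = 0.101) or library totals (adjusted p = 0.0829).

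WWTR1 (ENSG00000018408, chr3:149517235-149736714, minus strand) encodes TAZ, the paralog of YAP. It had 113 and 103 CPM in shNC, against 65.6 and 75.9 for shHMGA2-1 and 77.2 and 78.7 for shHMGA2-2, so that all 4 knockdown libraries lay below both controls. The log2 fold change was -0.61 (SE 0.08, edgeR adjusted p = 3.33e-06) in shHMGA2-1, the lowest of the 10 genes in that line. In shHMGA2-2 it was -0.47 (SE 0.08, edgeR adjusted p = 3.49e-05). Between the knockdown lines the difference of 0.14 did not pass (interval -0.03 to 0.31, edgeR adjusted p = 0.177). It passed without shHMGA2-1 replicate 2, at 0.25 (edgeR adjusted p = 0.0096), and was 0.038 without replicate 1 (edgeR adjusted p = 0.711).

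The TEAD genes, which encode the factors that carry YAP and TAZ to DNA, differed from each other. TEAD1 (ENSG00000187079, chr11:12674421-12944737, plus strand) had 529 and 520 CPM in shNC, with 529 and 602 for shHMGA2-1 and 506 and 463 for shHMGA2-2. Both shHMGA2-2 libraries lay below the controls by a small margin, and shHMGA2-1 overlapped shNC. The log2 fold change of TEAD1 was 0.11 (interval -0.03 to 0.25, edgeR adjusted p = 0.225) in shHMGA2-1 and -0.11 (interval -0.25 to 0.02, edgeR adjusted p = 0.149) in shHMGA2-2, neither past the threshold and the latter turned in sign with limma (0.0049) and library totals (0.0065). Between the knockdown lines it was -0.22 (SE 0.07, edgeR adjusted p = 0.00729). Single libraries decided these values. The change in shHMGA2-1 was 0.20 without shHMGA2-1 replicate 1 (edgeR adjusted p = 0.00822) and 0.013 without replicate 2 (edgeR adjusted p = 0.897), and with all libraries it was called under library totals (0.17, adjusted p = 0.0313). That in shHMGA2-2 was -0.18 without shHMGA2-2 replicate 1 (edgeR adjusted p = 0.0941) and -0.06 without replicate 2 (edgeR adjusted p = 0.611), and it was called at -0.11 without shHMGA2-1 replicate 1 or 2 (edgeR adjusted p = 0.0405 and 0.0403). The difference between the knockdown lines was lost without shHMGA2-1 replicate 2 (-0.13, edgeR adjusted p = 0.0758) or shHMGA2-2 replicate 2 (-0.16, edgeR adjusted p = 0.152) and with limma (adjusted p = 0.087).

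TEAD4 (ENSG00000197905, chr12:2959330-3040676, plus strand) was the less expressed TEAD gene of the pair. It had 28.2 and 30.0 CPM in shNC, against 19.9 and 20.5 for shHMGA2-1 and 16.6 and 18.2 for shHMGA2-2, with no overlap between the lines. Its log2 fold change was -0.53 (SE 0.11, edgeR adjusted p = 0.000508) in shHMGA2-1 and -0.74 (SE 0.11, edgeR adjusted p = 3.61e-06) in shHMGA2-2, a level 1.67-fold below shNC. The knockdown lines differed by -0.21, which did not pass (interval -0.45 to 0.03, edgeR adjusted p = 0.131).

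LATS2 (ENSG00000150457, chr13:20973036-21061586, minus strand) encodes a kinase that inactivates YAP and TAZ. The shNC libraries had 62.1 and 61.6 CPM, those of shHMGA2-1 71.8 and 79.0 and those of shHMGA2-2 63.5 and 60.2. Both shHMGA2-1 libraries lay above all others, and shHMGA2-2 overlapped shNC. LATS2 rose in shHMGA2-1, by a log2 fold change of 0.29 (SE 0.08, edgeR adjusted p = 0.00998), a call lost without shNC replicate 1 (adjusted p = 0.0964) or shNC replicate 2 (adjusted p = 0.108). In shHMGA2-2 it stood at -0.00098 (interval -0.17 to 0.17, edgeR adjusted p = 0.993), and at 0.11 and 0.12 with limma and library totals. It was lower in shHMGA2-2 than in shHMGA2-1 by -0.29 (SE 0.08, edgeR adjusted p = 0.00588), which was lost without shHMGA2-2 replicate 2 (adjusted p = 0.0821).

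AMOTL2 (ENSG00000114019, chr3:134355347-134375479, minus strand) encodes an angiomotin family protein that binds YAP and holds it at cell junctions. It had 188 and 196 CPM in shNC, with 154 and 150 for shHMGA2-1 and 124 and 135 for shHMGA2-2. The 3 lines did not overlap and followed the order seen for YAP1. Against shNC the log2 fold change was -0.34 (SE 0.07, edgeR adjusted p = 0.000491) in shHMGA2-1 and -0.57 (SE 0.07, edgeR adjusted p = 1.93e-07) in shHMGA2-2. The difference between the knockdown lines was -0.23 (SE 0.07, edgeR adjusted p = 0.00865) and was lost without shHMGA2-2 replicate 1 (adjusted p = 0.141) and with limma (adjusted p = 0.0766).

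In shHMGA2-1 against shNC, of the 4 target genes AXL was lower, CCN2 and ANKRD1 were higher and CCN1 did not pass, whereas all 4 were lower in shHMGA2-2 than in shHMGA2-1. CCN1 (ENSG00000142871, chr1:85580761-85584589, plus strand) and CCN2 (ENSG00000118523, chr6:131948176-131951372, minus strand) encode the secreted matricellular proteins CYR61 and CTGF, both standard readouts of YAP. CCN1 had 1327 and 1337 CPM in shNC, against 1363 and 1290 for shHMGA2-1 and 1012 and 1021 for shHMGA2-2. Its shHMGA2-1 libraries spanned the controls, and its shHMGA2-2 libraries lay below all others. The log2 fold change of CCN1 was -0.0058 (interval -0.12 to 0.11, edgeR adjusted p = 0.958) in shHMGA2-1, a sign that turned with limma and with library totals. In shHMGA2-2 it was -0.39 (SE 0.05, edgeR adjusted p = 1.4e-06) against shNC and -0.38 (SE 0.05, edgeR adjusted p = 2.42e-06) against shHMGA2-1.

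CCN2 had 629 and 627 CPM in shNC, with 792 and 811 for shHMGA2-1 and 578 and 584 for shHMGA2-2. The shHMGA2-1 libraries were the highest and the shHMGA2-2 libraries the lowest, without overlap. CCN2 rose in shHMGA2-1 by a log2 fold change of 0.35 (SE 0.06, edgeR adjusted p = 2.68e-05), or 1.28-fold. In shHMGA2-2 its value of -0.11 did not pass against shNC (interval -0.23 to 0.0040, edgeR adjusted p = 0.0905). It did pass without shHMGA2-1 replicate 1 (adjusted p = 0.0278) or replicate 2 (adjusted p = 0.0274) and its sign turned with limma (0.0064) and with library totals (0.0074). Between the knockdown lines CCN2 differed by -0.46 (SE 0.06, edgeR adjusted p = 2.26e-07).

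ANKRD1 (ENSG00000148677, chr10:90912096-90921087, minus strand), which encodes the muscle ankyrin repeat protein CARP, showed the widest spread between the lines. It had 659 and 656 CPM in shNC, against 778 and 861 for shHMGA2-1 and 163 and 146 for shHMGA2-2. Both shHMGA2-1 libraries lay above the controls, and both shHMGA2-2 libraries were far below every other library. ANKRD1 rose in shHMGA2-1 by a log2 fold change of 0.32 (SE 0.06, edgeR adjusted p = 0.00044), or 1.25-fold. In shHMGA2-2 it fell by 2.09 on the log2 scale (SE 0.07, edgeR adjusted p = 5.07e-18), 4.25-fold below shNC, and 3.46% of all tested genes had a lower value. The direct difference between the knockdown lines was -2.41 (SE 0.07, edgeR adjusted p = 6.69e-19), or 5.30-fold, with a lower value in 1.99% of tested genes. The windows of ANKRD1 and CCN2 described above each held GGAATG more than once. Their log2 fold changes were 0.32 and 0.35 in shHMGA2-1 and -2.09 and -0.11 in shHMGA2-2. Any part of these letters in the changes was not tested.

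AXL (ENSG00000167601, chr19:41219223-41261766, plus strand) encodes a receptor tyrosine kinase linked to invasion of breast cancer cells. Its level was 1206 and 1245 CPM in shNC, with 965 and 863 for shHMGA2-1 and 630 and 644 for shHMGA2-2. The lines were fully separated, with shNC highest and shHMGA2-2 lowest, as for YAP1, TEAD4 and AMOTL2. Its log2 fold change was -0.42 (SE 0.06, edgeR adjusted p = 5.12e-06) in shHMGA2-1 and -0.94 (SE 0.06, edgeR adjusted p = 1.75e-12) in shHMGA2-2, a level 1.92-fold below shNC. From shHMGA2-1 to shHMGA2-2 it fell by a further 0.52 on the log2 scale (SE 0.06, edgeR adjusted p = 1.03e-07). An opposite-strand gene overlapping AXL held at most 81 counts, 0.484% of those of AXL.

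**Figure D2:**
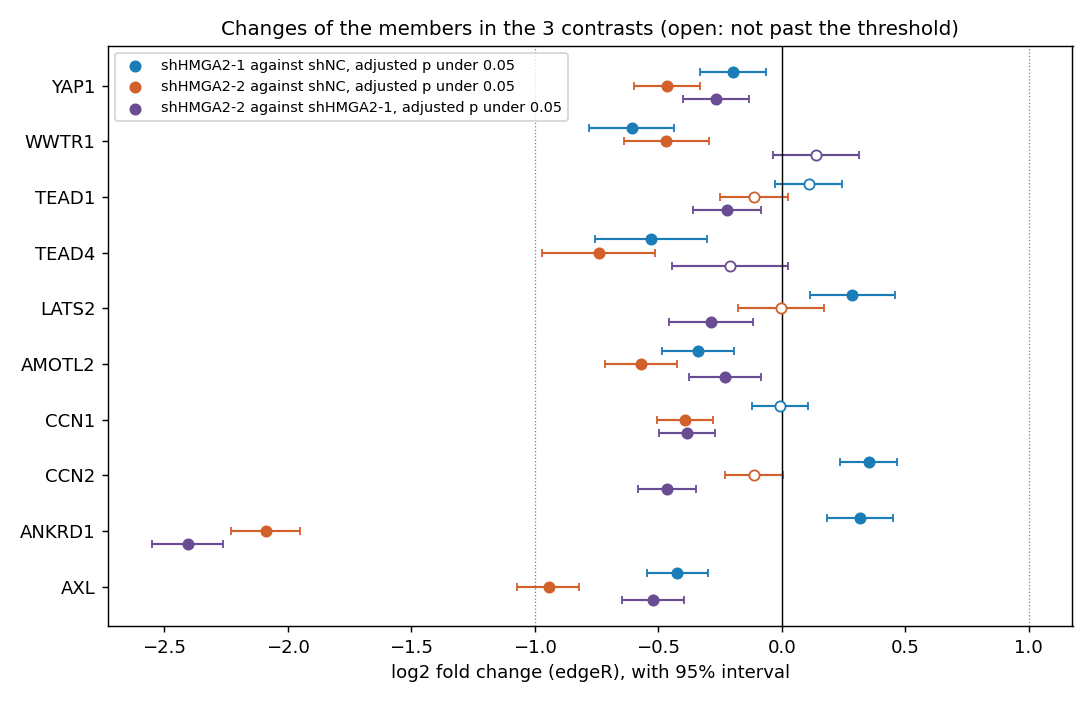
Log2 fold change (x axis) of each of the 10 genes (y axis) with its 95% interval in 3 edgeR contrasts, shHMGA2-1 against shNC in blue, shHMGA2-2 against shNC in orange and shHMGA2-2 against shHMGA2-1 in purple; open points did not pass an adjusted p of 0.05, and dotted lines mark 2-fold. ANKRD1 stands apart at -2.09 and -2.41. In shHMGA2-1 against shNC, CCN2, ANKRD1 and LATS2 lie above 0 as filled points and TEAD1 as an open point at 0.11.

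Taken library by library as TMM-normalized CPM, both shHMGA2-1 libraries lay below both controls for 5 genes and above them for 3, with 2 overlapping. In shHMGA2-2 both libraries lay below the controls for 9 genes and overlapped for LATS2. Of all tested genes 31.8% lay wholly below the controls and 32.6% wholly above them in shHMGA2-1, and 38.7% and 41.1% in shHMGA2-2. The counts of the 10 genes depended on the scaling. By FPKM, scaled to library totals, shHMGA2-2 overlapped the controls for TEAD1 (48.64 and 45.51 against 47.33 and 46.45) and CCN2 (254.09 and 262.62 against 257.78 and 256.56). LATS2 then lay above them in shHMGA2-2 (11.62 and 11.27 against 10.6 and 10.49), and TEAD1 in shHMGA2-1 (49.94 and 55.73).

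Levels between the genes were compared as FPKM, which here corrects for the exonic size of the whole gene and not for the transcript expressed. The order and the ratios below depend on that annotated size. In shNC the order of the mean FPKM was ANKRD1 (351), CCN1 (345), CCN2 (257), AXL (228), YAP1 (53.7), TEAD1 (46.9), AMOTL2 (28.4), WWTR1 (12.4), TEAD4 (12.3) and LATS2 (10.5). WWTR1 and TEAD4 overlapped between their libraries, and the other neighbours did not. In shHMGA2-1 ANKRD1 (458) again led CCN1 (359), CCN2 (343) and AXL (178), TEAD1 (52.8) overlapped YAP1 (48.9), and TEAD4 (8.87) overlapped WWTR1 (8.47) at the end of the order. In shHMGA2-2 ANKRD1 dropped from the first to the fourth place (89.8), behind CCN1 (286), CCN2 (258) and AXL (129). Among all genes its rank by mean FPKM was 40 in shNC, 33 in shHMGA2-1 and 332 in shHMGA2-2. The 4 targets stood above the coactivators and TEAD genes in every line.

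Ratios within a library do not depend on the scaling of that library. The ratio of ANKRD1 to CCN2 by FPKM was 1.37 and 1.37 in shNC, against 1.28 and 1.39 for shHMGA2-1 and 0.369 and 0.327 for shHMGA2-2, so that shHMGA2-1 overlapped shNC and shHMGA2-2 did not. Set against CCN1, ANKRD1 was at 1.03 and 1.01 in shNC, above that in shHMGA2-1 (1.18 and 1.38) and below it in shHMGA2-2 (0.333 and 0.296). AXL to CCN1 was 0.655 and 0.671 in shNC, with 0.510 and 0.482 for shHMGA2-1 and 0.448 and 0.454 for shHMGA2-2, lower in every knockdown library. CCN2 to CCN1 went the other way, from 0.751 and 0.742 in shNC to 0.919 and 0.994 in shHMGA2-1 and 0.903 and 0.905 in shHMGA2-2. Among the effectors, YAP1 to WWTR1 was 4.17 and 4.55 in shNC, against 5.95 and 5.62 for shHMGA2-1 and 4.52 and 4.19 for shHMGA2-2, with the shHMGA2-2 values inside the range of the controls. TEAD1 to TEAD4 was 3.99 and 3.68 in shNC, with 5.66 and 6.26 for shHMGA2-1 and 6.49 and 5.399 for shHMGA2-2. The ratios are given as a description, with no test.

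**Figure D3:**
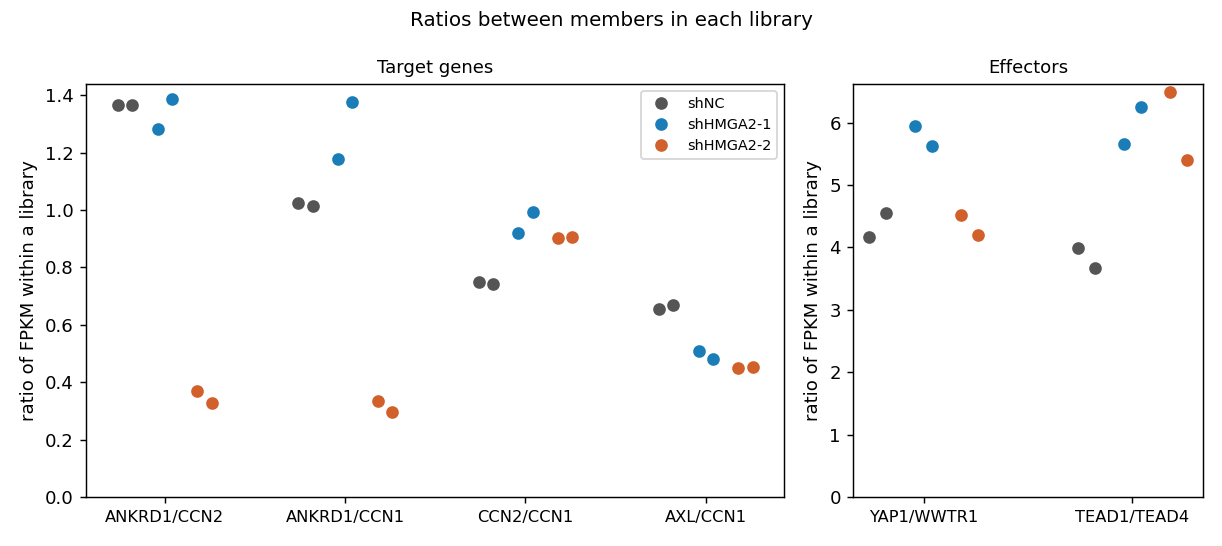
Ratios of FPKM between pairs of the 10 genes within each library (y axes from 0), target genes on the left and effectors on the right; each point is 1 library of shNC (grey), shHMGA2-1 (blue) or shHMGA2-2 (orange). The ANKRD1 ratios of shHMGA2-2 lie at 0.296 to 0.369, apart from all others, and TEAD1/TEAD4 is above the controls in all 4 knockdown libraries.

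When the 4 libraries of both knockdown lines were pooled into 1 group, WWTR1 (log2 fold change -0.54, SE 0.11, edgeR adjusted p = 0.0438) and TEAD4 (-0.63, SE 0.13, edgeR adjusted p = 0.0444) passed, both lower, and 0 genes were higher. Of all tested genes 2.92% were lower and 2.34% higher. The fit counted the 4 libraries as independent, although they were 2 samples each of 2 lines, set against 1 control line. Its p-values therefore take samples of 1 line for separate units. At an unadjusted p under 0.05 there were 5 genes, all lower, and DESeq2 called 4 lower and 0 higher. ANKRD1, opposite in sign in the 2 lines, had -0.43 with an interval of -2.28 to 1.41 (edgeR adjusted p = 0.748). That value was -0.75 and -0.86 without shHMGA2-1 replicate 1 or 2, and -0.14 and -0.135 without shHMGA2-2 replicate 1 or 2. Both calls were lost without any 1 library, with WWTR1 at adjusted p-values of 0.0592 to 0.346 and TEAD4 at 0.0513 to 0.358 (edgeR).

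Other regulators of the pathway and TEAD partners were taken from a list of 26 genes, of which 24 were tested. CRB3 had at most 2 counts and VGLL1 had 0 in every library. In shHMGA2-1, 9 were lower and 2 higher (17.6% and 15.8% of all tested genes), with a median log2 fold change of -0.13. In shHMGA2-2, 13 were lower and 3 higher (29.2% and 29.5% of all tested genes), with a median of -0.33, and the direct comparison had 13 lower and 5 higher in shHMGA2-2 (25.7% and 24.5%). Past 2-fold in shHMGA2-2 were 4 lower and 0 higher, by edgeR, beside 9.65% and 11.7% of all tested genes.

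AMOT, the founding angiomotin, was counted 331 and 289 times in shNC, against 229 and 173 for shHMGA2-1 and 1 and 15 for shHMGA2-2. The log2 fold change of AMOT was -0.70 in shHMGA2-1 (SE 0.18, edgeR adjusted p = 0.00403) and -5.34 in shHMGA2-2 (SE 0.31, edgeR adjusted p = 3.41e-13), the latter resting on 2 low counts that lie far apart. VGLL3, a cofactor that competes with YAP for TEAD, had 25.1 and 23.8 CPM in shNC, with 10.8 and 15.1 for shHMGA2-1 and 3.84 and 3.90 for shHMGA2-2. It fell in both lines, with log2 fold changes of -0.91 (edgeR adjusted p = 1.38e-05) and -2.66 (edgeR adjusted p = 1.11e-12). FAT4, an atypical cadherin upstream of the cascade, was lower in both, at -1.47 (edgeR adjusted p = 6.46e-11) and -1.5 (edgeR adjusted p = 9.27e-12). WWC1 encodes KIBRA, an activator of the LATS kinases, and differed between the lines. Its level was 58.2 and 61.4 CPM in shNC, against 27.3 and 26.8 for shHMGA2-1 and 57.0 and 53.9 for shHMGA2-2, with a direct difference of 1.04 (SE 0.09, edgeR adjusted p = 1.29e-09). FRMD6, a FERM domain protein of the same upstream module, was at -0.26 in shHMGA2-1 (edgeR adjusted p = 0.0052) and -1.09 in shHMGA2-2 (edgeR adjusted p = 1.86e-12).

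Among genes chosen after their values were seen, the remaining TEAD paralogs also differed from each other. TEAD3 was at -0.37 in shHMGA2-1 (edgeR adjusted p = 0.00536) and -0.79 in shHMGA2-2 (edgeR adjusted p = 4.1e-07), whereas TEAD2 did not pass in either line (0.08 and 0.15, edgeR adjusted p = 0.646 and 0.26). Of the kinases beside LATS2, LATS1 rose in shHMGA2-2 by 0.64 (edgeR adjusted p = 3.41e-06) and stood at 0.0091 in shHMGA2-1 (edgeR adjusted p = 0.964). Of the MST kinases, STK4 was lower in both lines, at -0.54 (edgeR adjusted p = 4.63e-06) and -0.50 (edgeR adjusted p = 3.88e-06), whereas STK3 rose in shHMGA2-1 by 0.44 (edgeR adjusted p = 0.000824) and stood at -0.05 in shHMGA2-2 (edgeR adjusted p = 0.67).

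A list of 22 further genes used as YAP, TAZ and TEAD targets, all tested, showed both directions. In shHMGA2-1, 7 were lower and 6 higher (median log2 fold change 0.056), beside 17.6% and 15.8% of all tested genes. In shHMGA2-2, 11 were lower and 5 higher (median -0.43), beside 29.2% and 29.5%, so that the higher genes were no more frequent than among all genes. The direct comparison had 11 lower and 5 higher in shHMGA2-2, with a median of -0.17, beside 25.7% and 24.5%. In shHMGA2-2, 4 genes lower and 4 higher were past 2-fold, beside 9.65% and 11.7%.

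THBS1, the matrix protein thrombospondin 1, had 189 and 190 CPM in shNC, with 85.7 and 79.7 for shHMGA2-1 and 715 and 706 for shHMGA2-2. It fell in shHMGA2-1, with a log2 fold change of -1.2 (edgeR adjusted p = 7.62e-13), and rose in shHMGA2-2 by 1.91 (edgeR adjusted p = 7.27e-18), with a direct difference of 3.10 (SE 0.07, edgeR adjusted p = 4.38e-21). IGFBP3, which binds insulin-like growth factors, moved the opposite way, like ANKRD1. It had 115 and 111 CPM in shNC, against 189 and 186 for shHMGA2-1 and 40.4 and 38.3 for shHMGA2-2, with log2 fold changes of 0.73 (edgeR adjusted p = 1.6e-08) and -1.52 (edgeR adjusted p = 2.19e-14). TGFB2, the growth factor, was lower in both lines, at -1.5 (edgeR adjusted p = 6.63e-13) and -1.06 (edgeR adjusted p = 4.01e-11). FOXF2, a forkhead transcription factor, was counted 12 and 11 times in shNC, with 79 and 104 for shHMGA2-1 and 94 and 104 for shHMGA2-2. Its log2 fold changes were 2.90 (SE 0.30, edgeR adjusted p = 4.2e-08) and 3.01 (SE 0.30, edgeR adjusted p = 5.04e-09). NUAK2, a kinase related to AMPK, rose by 0.54 (edgeR adjusted p = 0.0108) and 1.88 (edgeR adjusted p = 4.63e-11). DOCK5, a Rac activator, was at -0.06 in shHMGA2-1 (edgeR adjusted p = 0.551) and fell by 1.26 on the log2 scale in shHMGA2-2 (edgeR adjusted p = 1.42e-13).

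**Figure D4:**
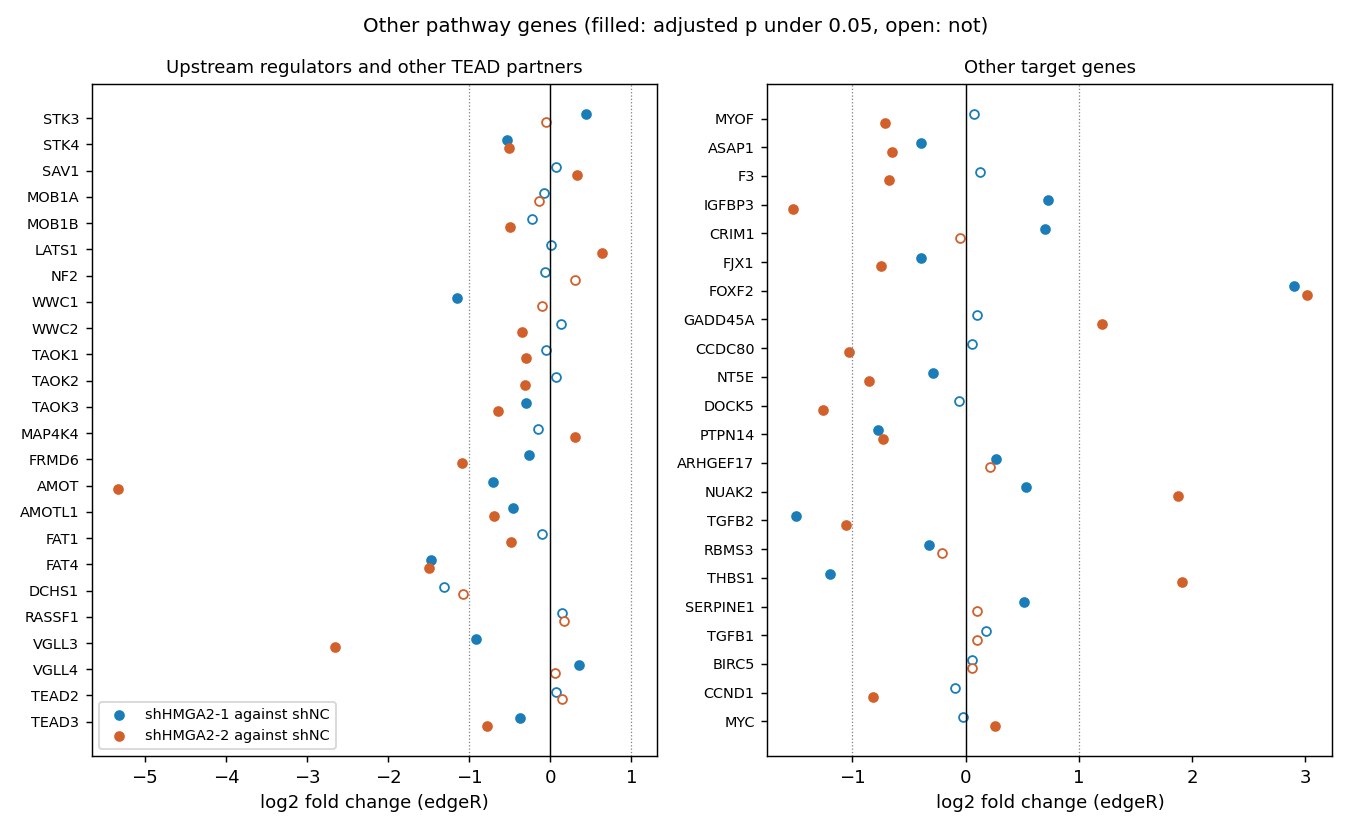
Log2 fold change (x axis) of the other tested pathway genes (y axis) against shNC, in shHMGA2-1 (blue) and shHMGA2-2 (orange), with 24 regulators and TEAD partners on the left and 22 target genes on the right; filled points had an adjusted p under 0.05 in edgeR and dotted lines mark 2-fold. AMOT and VGLL3 stand lowest on the left at -5.34 and -2.66 in shHMGA2-2, and THBS1 and IGFBP3 lie on opposite sides of 0 in the 2 lines.

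Scaled to library totals, the split of all called pathway genes moved from 16 lower and 8 higher to 15 and 12 in shHMGA2-1, and from 24 lower and 8 higher to 23 and 14 in shHMGA2-2.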

How the data were processed

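RNA from 6 libraries of MDA-MB-231 was sequenced after mRNA capture, 2 each of shNC, shHMGA2-1 and shHMGA2-2. The authors deposited 1 table of 61806 genes with a raw read count per gene and library, not normalized, and an FPKM value beside it. The submitters' processing notes name HISAT2 2.2.1, HTSeq 0.6.1 and the build GRCh38.p13 without their roles, and the strand setting is not given in the sources used here. The deposited FPKM values were recomputed from the counts, exonic size and library total for 100% of values, within 0.0051. Reads carry no molecular identifiers. Of the genes, 20417 had no symbol.

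Counts were analysed with edgeR 4.0.16 in R 4.3.3: filterByExpr by group, TMM (factors 0.958 to 1.05) and the quasi-likelihood test, with 1 model of 3 groups for the single lines and 1 of 2 groups for the shHMGA2 libraries together, and Benjamini-Hochberg adjustment over 16110 genes. A gene was called at an adjusted p under 0.05. Intervals are 95% intervals of the fit, unadjusted. A floor of 3 counts is the limit that a count of 0 allows, for counting error only. On simulated counts over 16110 genes edgeR recovered 197, 197 and 194 of 200 changed genes in shHMGA2-1 against shNC, shHMGA2-2 against shNC and shHMGA2-2 against shHMGA2-1, with 9, 7 and 9 false calls. For the single group it recovered 199, with 6. These counts hold only for the size of change and the spread that were simulated. They do not give the recovery or the false calls for the changes under 2-fold reported above, or for replicates that may be technical.

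The members and lists were chosen with earlier results of these data known. Named genes were the members, HMGA2 and, per list and contrast, up to 4 genes with the largest change past an adjusted p of 0.05 and 2-fold; TEAD2, TEAD3, LATS1, STK3 and STK4 fall outside this rule and were picked with their values in view. The alternatives tried were DESeq2 1.42.0, RLE scaling, no filter, limma 3.58.1 on log2(FPKM + 1), the replicate number as a block, each library left out and, added after seeing the data, library totals. Promoter windows came from RefSeq and were searched in python 3.11.15.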

Additional observations from a re-analysis of the deposited data

Results flagged for a closer look

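In the direct comparison of the knockdown lines, which tests whether their changes from shNC differ, 8 of the 10 genes differed (edgeR, adjusted p under 0.05), each lower in shHMGA2-2, beside 25.7% of all tested genes lower and 24.5% higher. The log2 difference was -2.41 for ANKRD1, the cardiac ankyrin repeat gene, -0.52 for AXL, -0.46 for CCN2 and -0.38 for CCN1. For the regulators it was -0.29 for LATS2 and -0.23 for AMOTL2, and for the effectors -0.27 for YAP1 and -0.22 for TEAD1. CCN2, ANKRD1 and LATS2 had both shHMGA2-1 libraries above shNC. The values for TEAD1, AMOTL2 and LATS2 lost their call when 1 library was left out, as given with each gene above. With 2 libraries per group no single library could be tested as standing apart.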

How the results depend on the processing

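Of 360 log2 fold changes of the 10 genes recomputed under 12 other settings in the 3 contrasts of single lines, 329 kept their direction and side of the threshold, 13 lost a call, 7 gained one and 11 turned in sign, none of the last called by the test. The total numbers of called genes stayed within 1.5 times in these contrasts. By direction, higher pathway genes went from 8 to 14 in shHMGA2-2 with library totals and from 8 to 5 in shHMGA2-1 without shNC replicate 1, and higher genes among the 10 in the direct comparison from 0 to 1 without shHMGA2-1 replicate 2. When a line was left with 1 library, that library was assumed to vary like the others. For the single group the count of 2 called genes became 4 with DESeq2, 0 without the filter, 1 with limma, 0 with library totals and 0 to 0 with 1 library left out. The values that turned in sign were CCN1 in shHMGA2-1 (0.058 with limma, 0.059 with library totals, -0.046 to 0.033 with 1 library left out), and in shHMGA2-2 CCN2 (0.0064 and 0.0074 with limma and library totals), TEAD1 (0.0049 and 0.0065) and LATS2 (0.11 and 0.12, and -0.040 to 0.030 with 1 library left out). TEAD1 in the single group, 0.0022, became -0.0077 with DESeq2, -0.0077 with RLE scaling, -0.019 without the filter and -0.070 to 0.053 with 1 library left out. The cause was not tested.

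Libraries with the same replicate number did not deviate together (correlations of -0.02, 0.0021 and -0.10), so the numbers were not taken as a pairing. With the replicate block, 8, 7 and 8 of the 10 genes were called in shHMGA2-1, shHMGA2-2 and the direct comparison, as without it, 22, 32 and 33 in place of 24, 32 and 34 of the other pathway genes, and 0 in the single group. The least counted of the 10 genes, TEAD4, had 281 to 488 counts per library, and the 2 libraries per line set the precision of every value.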
